A study of Homo sapiens with 6 samples.

Results

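The FGF signalling and feedback genes are 10 genes chosen by name: the ligands FGF2 and FGF4, the receptors FGFR1 and FGFR2, the inhibitors SPRY1, SPRY2, SPRY4 and DUSP6, and the transcription factors ETV4 and ETV5. They are 10 of the 20037 protein-coding genes of the RefSeq table of GRCh38. Accessibility of their chromatin was read by ATAC-seq, an assay that tags and sequences DNA where a transposase can reach it. All 6 libraries came from H1, 1 line of human embryonic stem cells, grown on Matrigel in mTeSR1, a medium that itself supplies FGF2. The cells carried a lentiviral short hairpin RNA and were selected with puromycin. There were 2 libraries with the hairpin shHNRNPU #1, 2 with shHNRNPU #2 and 2 with the control shLUC, which targets luciferase. HNRNPU encodes a nuclear RNA-binding protein of the nuclear matrix, and the series asks about its role in these cells. Whether the repeats were separate cultures is not stated, so p-values measure only the spread between these libraries. What was deposited is a list of peak summits per library, each summit being the point of highest signal in a peak, with a score. The lists hold no read counts, so depth is unknown, a site without a summit is only not called, and the knockdown itself is not seen in them.

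Each gene was given a window reaching 20 kb beyond both ends. Summits were merged across libraries into loci, and a summit no more than 250 bp from a locus centre counted as that locus being called. The 10 windows held 217 of 356720 summits and 63 of 123131 loci. Scores were turned into percentiles within each library's own list, where 100 marks the strongest peak. The lists held from 52168 summits, in shHNRNPU #2 repeat 2, to 63519, in shHNRNPU #1 repeat 2, and median scores lay between 6.91 and 8.43. As a check on the cell type, a summit within 1000 bp of a gene start was sought at 10 genes of pluripotent cells. It was found in all 6 libraries at 6 of them and in 1 to 4 libraries at the other 4, which were POU5F1, SOX2, NANOG and DNMT3B. NANOG, a core factor of pluripotency, had its start called in 2 of 2 shLUC libraries and 0 of 4 shHNRNPU libraries. Of all protein-coding genes, 10.6% had a start called in some but not all libraries. The share of genes whose start calls separate the groups is not given here. The NANOG window held 2, 2, 1 and 1 summits with shHNRNPU and 4 and 3 with shLUC. NANOG was the 1 gene of the 10 whose window counts did not overlap between the groups, as was so for 7.47% of all genes. Of the markers of other cell types, the window counts did not overlap at TFAP2A, MYOD1 and PTPRC only, beside the same 7.47% of all genes. The trophoblast gene TFAP2A had 13, 14, 12 and 11 summits against 9 and 10, and the muscle gene MYOD1 had 6, 4, 4 and 5 against 3 and 3. The leukocyte gene PTPRC had 3, 3, 3 and 2 against 8 and 4. The other trophoblast genes overlapped, CDX2 with 6, 9, 5 and 6 against 5 and 6 and GATA3 with 8, 6, 5 and 4 against 5 and 6. The listed endoderm, mesoderm and neuroectoderm genes overlapped too. The part of these markers in the results was not tested. Of 7 genes of differentiated cells, 5 had no summit within 1000 bp of a start in any library, CD3E had one in 4 libraries, and MYOD1 had one in all 6. Of 12 early lineage genes, 10 had one in all 6 libraries, so these gene starts do not tell the cell types apart.

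Fibroblast growth factors bind receptor tyrosine kinases at the cell surface, and the receptors signal through adaptors, RAS and a chain of kinases that ends in ERK. ERK signalling switches on the ETS-family factors ETV4 and ETV5 and also its own inhibitors, the Sprouty proteins and the phosphatase DUSP6. In human pluripotent stem cells, FGF2 in the medium sustains self-renewal, and FGF4 is a ligand that the pluripotent epiblast makes.

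Sequences are shown for 4 gene starts at which a locus was called in all 6 libraries. Of the 10 genes, 6 had starts in the RefSeq promoter table of GRCh38.p14, with 13 starts between them. FGF4, FGFR1, ETV4 and ETV5 had none, and for these genes distances are given to the end of lower or of higher coordinate. Each sequence is the 250 bases before the start, 5′ to 3′ on the gene's strand. FGF2 and SPRY1 are printed because the groups did not overlap there, and SPRY2 and DUSP6 because their start loci were strong and the groups overlapped. SPRY4, whose groups did not overlap at -870 bp from its start, is not printed. Capitals mark matches, on either strand, to the letters searched.
FGF2, chr4:122826581-122826830, plus strand: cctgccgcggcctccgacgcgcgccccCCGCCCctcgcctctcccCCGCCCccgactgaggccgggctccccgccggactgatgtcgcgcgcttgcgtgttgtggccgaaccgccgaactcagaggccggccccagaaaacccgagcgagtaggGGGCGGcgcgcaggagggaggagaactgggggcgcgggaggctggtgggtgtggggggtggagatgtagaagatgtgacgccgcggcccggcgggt
SPRY1, second start, chr4:123398136-123398385, plus strand: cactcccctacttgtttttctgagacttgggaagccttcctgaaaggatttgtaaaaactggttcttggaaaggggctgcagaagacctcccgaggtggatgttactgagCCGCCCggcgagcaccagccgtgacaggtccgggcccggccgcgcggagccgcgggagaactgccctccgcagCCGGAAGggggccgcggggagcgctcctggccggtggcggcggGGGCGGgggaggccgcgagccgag
SPRY2, outermost start, chr13:80341127-80341376, minus strand: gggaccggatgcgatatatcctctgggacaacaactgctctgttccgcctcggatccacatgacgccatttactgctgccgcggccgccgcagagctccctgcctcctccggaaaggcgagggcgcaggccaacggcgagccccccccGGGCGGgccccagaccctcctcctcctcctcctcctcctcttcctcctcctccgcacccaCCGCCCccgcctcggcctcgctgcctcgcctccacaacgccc
DUSP6, chr12:89352502-89352751, minus strand: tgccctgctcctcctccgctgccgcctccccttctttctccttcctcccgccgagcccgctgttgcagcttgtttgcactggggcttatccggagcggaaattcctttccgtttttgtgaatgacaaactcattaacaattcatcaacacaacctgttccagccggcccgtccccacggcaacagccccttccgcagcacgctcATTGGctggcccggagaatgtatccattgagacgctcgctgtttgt

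The letters searched were CCGGAAG for ETS factors, GGGCGG for SP factors, TGACGTC for CREB, TATAAA for the TATA box, CCAAT for NFY, ATGCAAA for the octamer and CATTGTT for SOX factors. No marked matches overlapped in these sequences. The FGF2 sequence held 3 SP matches, beginning -223, -205 and -96 bases from the start, and its bases were 75.2% G or C. SPRY1 held 1 ETS match at -67 and SP matches at -140 and -24. SPRY2 held SP matches at -102 and -42, and DUSP6 held 1 NFY match at -46. Over the 13 starts of the 6 genes, 6 held an SP match, 4 an NFY match and 1 an ETS match, and 0 held any of the other letters. Among 22199 starts of protein-coding genes the shares were 53.7% for SP, 32.7% for NFY and 10.7% for ETS. A match describes letters only and is not a bound site.

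The first comparison asked whether the number of open sites around these genes differed with hairpins against HNRNPU. The groups overlapped at each of the 10 genes, so 0 were separated, beside 7.47% of all genes tested. SPRY4 and ETV4 had 2 summits in each of the 6 libraries. FGF2 had 2 summits in shHNRNPU #1 repeat 2 and 3 in each other library. SPRY2 had 4 in shLUC repeat 1 and 3 in each other library, and DUSP6 had 4 in shHNRNPU #1 repeat 1 and 3 in each other library. SPRY1 had 4 or 5, FGF4 from 1 to 3, ETV5 from 4 to 6, FGFR1 from 4 to 7 and FGFR2 from 5 to 9, and in each of these 5 the groups overlapped. In all, the shHNRNPU libraries had 36 ± 2.16 summits (SD, n = 4) in the windows. The shLUC libraries had 36.5 ± 0.707 (SD, n = 2). The difference, -0.5 summits, was smaller than the spread of the shHNRNPU libraries. The largest difference at a gene was -1 summit, at FGFR1, with 5 ± 1.41 (SD, n = 4) against 6 ± 1.41 (SD, n = 2). Its exact two-sided permutation p over the 15 choices of a control pair was 0.667, and 1 after Benjamini-Hochberg adjustment over 18733 genes. Across those genes, 3.54% had more summits in every shHNRNPU library than in both shLUC libraries and 3.92% had fewer. With 4 libraries against 2 this test cannot give a p below 0.133. Per length, SPRY1 was the densest window, with 9.94 summits per 100 kb, and FGF2 the sparsest, with 2.54. The median was 4.42 over the 10 genes and 3.63 over all genes tested.

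**Figure D1:**
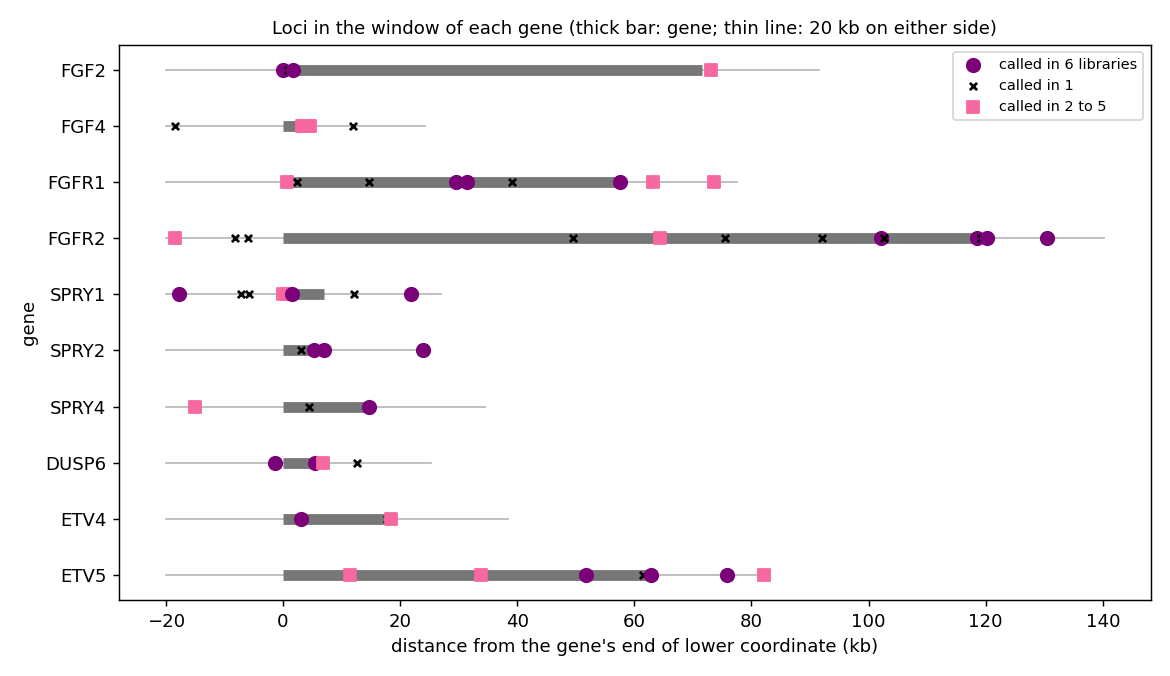
Map of the loci in each window, with distance from the gene's end of lower coordinate in kb on the x axis and 1 row per gene. The thick bar is the gene, the thin line its flanks of 20 kb, and the symbols show whether a locus was called in 6 libraries, in 2 to 5 or in 1. FGFR2 has 14 loci, of which 8 were called in 1 library, and FGF4 has 6 loci, none of them called in all 6.

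The second comparison asked which loci were present with one kind of hairpin only. A locus was called lost if both shLUC libraries and no shHNRNPU library held it, and gained if the reverse held. The windows had 0 lost and 0 gained loci. Among all loci, 1.93% were lost and 0.88% were gained. Of the 63 loci, 22 (34.9%) were called in all 6 libraries, beside 20.7% of all loci, and 23 (36.5%) were called in 1 library, beside 38.02%. The locus nearest to a gain lay below SPRY4, on chromosome 5 at position 142295500. It was held by 4 of 4 shHNRNPU libraries at percentiles of 53.6, 68.1, 50.4 and 27.2, with scores of 8.38, 12.2, 6.99 and 4.90. In shLUC repeat 1 its percentile was 2.91, with a score of 2.03, and shLUC repeat 2 had no summit there. The locus is -14930 bp from the end of SPRY4 of lower coordinate, and it is called gained when the lists are set to one size, since the weak control summit then drops out.

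**Figure D2:**
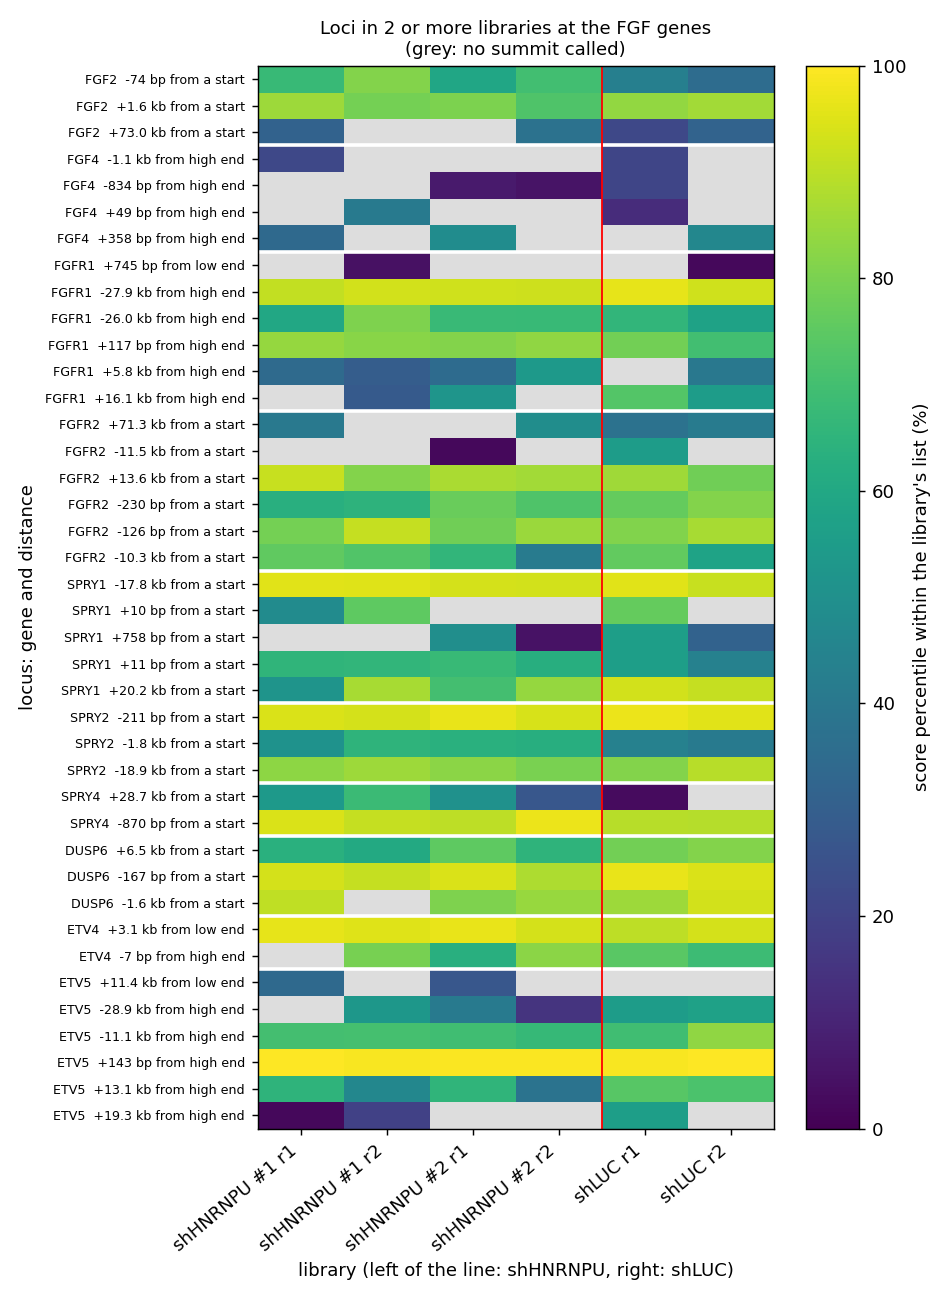
Score percentile of each locus called in 2 or more libraries, with 1 row per locus and 1 column per library. Colour runs from 0 to 100%, grey marks no called summit, and the red line parts the 4 shHNRNPU libraries from the 2 shLUC libraries. Rows at ETV5, SPRY2, DUSP6 and SPRY4 starts are bright in every column, and the FGF4 rows are dark or grey.

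The ligands came first. FGF2 encodes basic fibroblast growth factor and lies on chromosome 4 from 122826682 to 122898236. At the centre of its promoter locus, at 122826757 and -74 bp from the listed start, the percentiles were 67.3 and 81.4 with shHNRNPU #1, 59.1 and 69.6 with shHNRNPU #2, and 43.2 and 35.4 with shLUC. Each shHNRNPU value was above both controls, and the lowest of them cleared the higher control by more than the gap between the controls. The scores were 12.3, 20.1, 8.54 and 14.3 with shHNRNPU and 6.52 and 4.86 with shLUC. With scores of at least 5 only, the summit of shLUC repeat 2 drops out and the locus is not compared. The mean percentile was 69.3 ± 9.23 (SD, n = 4) against 39.3 ± 5.48 (SD, n = 2), a difference of 30.0 points. Its exact two-sided permutation p was 0.133, the smallest possible, and 0.538 after adjustment over the 25519 loci called in all 6 libraries. Of those loci, 98.8% had a smaller difference. The difference was 35.0 points for shHNRNPU #1 and 25.0 for shHNRNPU #2 against the same controls. The summits of the 6 libraries lay between 122826700 and 122826785, inside the printed sequence.

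The second FGF2 locus behaved otherwise. It lies inside the gene at 122828468, 1637 bp past the start, and is the strongest locus of the window. Its percentiles were 85.5, 79.2, 80.2 and 72.5 with shHNRNPU and 83.7 and 86.0 with shLUC, so the groups overlapped, with a difference of -5.50 points. A weak locus at 122899848, past the other end of FGF2 and within NUDT6, was called in 4 libraries at percentiles of 21.8 to 37.7.

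FGF4, which encodes a growth factor of the early epiblast, lies on chromosome 11 from 69771022 to 69775341. Its loci were the weakest of the set. None of its 6 loci was called in all 6 libraries, and the highest percentile at any was 48.5. The 4 loci called more than once lay between 69774237 and 69775699, around the end of higher coordinate. In shLUC repeat 1 a single summit at 69774486 lay near enough to both 69774237 and 69774507 to be counted at each. Each library had a summit within 1000 bp of that end, but at differing positions, and 3 or fewer libraries shared any one locus. Inside the gene, no summit was called closer than 3215 bp to the end of lower coordinate.

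The receptors differed little between the groups. FGFR1, the main FGF receptor of many embryonic cells, lies on chromosome 8 from 38411143 to 38468635. At 38468752, 117 bp beyond its end of higher coordinate, the percentiles were 84.4, 82.1, 81.4 and 83.4 with shHNRNPU and 78.7 and 69.8 with shLUC. The groups did not overlap, at 82.8 ± 1.32 (SD, n = 4) against 74.3 ± 6.29 (SD, n = 2), but the difference of 8.55 points was close to the SD of the controls. It was 13.0 points without shLUC repeat 1 and 4.10 without shLUC repeat 2, and 13.97 with scores of at least 5 only. The strongest locus of the window lay inside the gene at 38440737. Its percentiles of 91.0, 93.2, 92.7 and 92.5 with shHNRNPU and 96.3 and 92.9 with shLUC overlapped. At 38442594, also inside, the range was 57.5 to 80.7 and the groups overlapped too.

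FGFR2, a receptor whose splice forms mark epithelial and mesenchymal cells, lies on chromosome 10 from 121478330 to 121598458. Its 4 loci called in all 6 libraries all overlapped between the groups. At its outermost start, at 121598570, the percentiles were 79.0, 91.0, 78.2 and 84.9 with shHNRNPU and 81.2 and 86.8 with shLUC. The locus of highest mean percentile lay inside the gene at 121580392, with 91.5, 81.3, 87.4 and 86.0 against 85.9 and 78.5. At 121596875, -230 bp from an inner start, the values were 63.2, 64.7, 77.1 and 72.4 against 76.4 and 81.4. There 3 of the 4 shHNRNPU libraries lay below both controls and shHNRNPU #2 repeat 1 lay between them. At 121608780, beyond the gene, shHNRNPU #2 repeat 2 stood low at 41.7 while the other libraries ranged from 57.9 to 75.9.

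The Sprouty genes encode inhibitors that act between the receptors and ERK. SPRY1 lies on chromosome 4 from 123396795 to 123403760 and had 2 listed starts. At the second, the locus at 123398397 had percentiles of 65.4 and 65.9 with shHNRNPU #1, 67.6 and 62.7 with shHNRNPU #2, and 56.0 and 43.8 with shLUC. The 4 shHNRNPU values were close together and above both controls, at 65.4 ± 2.04 (SD, n = 4) against 49.9 ± 8.64 (SD, n = 2), a difference of 15.5 points. It was 9.39 points without shLUC repeat 2 and 25.6 with scores of at least 5 only. At the first start the order was not compared, since no one locus there was called in all 6 libraries. Both shHNRNPU #1 libraries held the locus at 123396805, 10 bp past the start, and both shHNRNPU #2 libraries held the one at 123397553, 758 bp past the start. Of the controls, shLUC repeat 1 held both and shLUC repeat 2 the latter.

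Beyond SPRY1 lay 2 strong distal loci that differed in their behaviour. The one at 123378995, -17800 bp from the first start, had percentiles of 91.5 to 95.6 in the 6 libraries, and its groups overlapped. The one at 123418600, 14840 bp beyond the end of higher coordinate, had 51.9 and 86.9 with shHNRNPU #1, 70.3 and 84.2 with shHNRNPU #2, and 93.0 and 91.2 with shLUC. The controls were close together and above all 4 shHNRNPU libraries, which were widely spread, at 73.3 ± 16.04 (SD, n = 4) against 92.1 ± 1.28 (SD, n = 2). The scores were 7.96, 26.1, 11.7 and 24.6 against 34.1 and 29.0. Of all loci in 6 libraries, 6.29% had a lower difference than its -18.8 points, which became -11.6 points without shHNRNPU #1 repeat 1. The difference was -27.2 points with scores of at least 5 only.

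SPRY2, on chromosome 13 from 80335976 to 80341126, was strong and steady at its start. The locus at 80341337, -211 bp from the outermost start and inside the printed sequence, had percentiles of 93.7 to 96.9 in the 6 libraries. A weaker locus at 80342947, -1821 bp from that start, had 51.0, 64.9, 63.5 and 62.5 with shHNRNPU and 43.9 and 40.6 with shLUC. All 4 shHNRNPU values were above both controls, at 60.5 ± 6.36 (SD, n = 4) against 42.3 ± 2.29 (SD, n = 2), a difference of 18.2 points, or 29.6 with scores of at least 5 only. A more distant locus at 80359982, -18856 bp away, ranged from 79.8 to 89.3 and its groups overlapped.

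SPRY4, on chromosome 5 from 142310430 to 142325021, had 1 locus in all 6 libraries. It lay at 142325117, -870 bp from the listed start and 96 bp beyond the end of higher coordinate. The summits of the 6 libraries fell within 8 bp of each other. The percentiles were 94.3, 91.2, 89.9 and 97.0 with shHNRNPU and 89.3 and 89.0 with shLUC. The groups did not overlap, but the lowest shHNRNPU library was close to the controls, and the difference was 3.96 points, or 6.19 with scores of at least 5 only.

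DUSP6 encodes a phosphatase that inactivates ERK and is widely used as a readout of FGF signalling. It lies on chromosome 12 from 89347235 to 89352501. At its start the locus at 89352668, -167 bp from the start, had percentiles of 93.7, 91.2, 94.4 and 87.7 with shHNRNPU and 96.7 and 94.3 with shLUC, which overlapped. The locus beyond the other end, at 89345970 and -1265 bp from the end of lower coordinate, did not. It had 63.3 and 60.6 with shHNRNPU #1, 75.1 and 65.0 with shHNRNPU #2, and 78.8 and 81.6 with shLUC. The controls were above all 4 shHNRNPU libraries, at 80.2 ± 1.98 (SD, n = 2) against 66.0 ± 6.34 (SD, n = 4). The difference was -14.2 points, or -19.7 with scores of at least 5 only. A locus at 89354092, -1591 bp from the start, was called in 5 libraries at percentiles of 80.5 to 93.0. In the library that lacked it, shHNRNPU #1 repeat 2, a summit lay at 89353774 with a percentile of 88.2. The loci on the start side of DUSP6 also lie within the readthrough gene POC1B-DUSP6.

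ETV5 and ETV4 encode ETS-family transcription factors that carry the FGF signal to genes. ETV5 lies on chromosome 3 from 186046314 to 186109089, and its locus at 186109232, 143 bp beyond the end of higher coordinate, was the strongest of the set. It had percentiles of 99.0 to 99.7 and scores of 65.5 to 90.2 in the 6 libraries, with a difference of 0.02 points. The locus at 186122221, 13132 bp beyond that end and within the uncharacterised gene LOC105374257, was lower with the hairpins against HNRNPU. Its percentiles were 64.9 and 46.2 with shHNRNPU #1, 65.5 and 38.2 with shHNRNPU #2, and 74.1 and 71.5 with shLUC. Repeat 2 was the lower one for both hairpins, and the means were 53.7 ± 13.6 (SD, n = 4) and 72.8 ± 1.85 (SD, n = 2). The difference was -19.1 points, or -26.1 with scores of at least 5 only. A locus inside the gene at 186098000 had 67.2 to 70.4 in 5 libraries and 83.2 in shLUC repeat 2, and its groups overlapped.

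ETV4, on chromosome 17 from 43527846 to 43546340, overlaps DHX8, and its strongest locus at 43530941 lies within both genes. The percentiles there were 96.5, 94.96, 96.8 and 93.66 with shHNRNPU and 90.2 and 93.68 with shLUC, so the groups met. Near the end of higher coordinate a locus at 43546333 was called in 5 libraries at 63.2 to 82.7. In shHNRNPU #1 repeat 1, which lacked it, a summit lay at 43545627 with a percentile of 77.5.

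**Figure D3:**
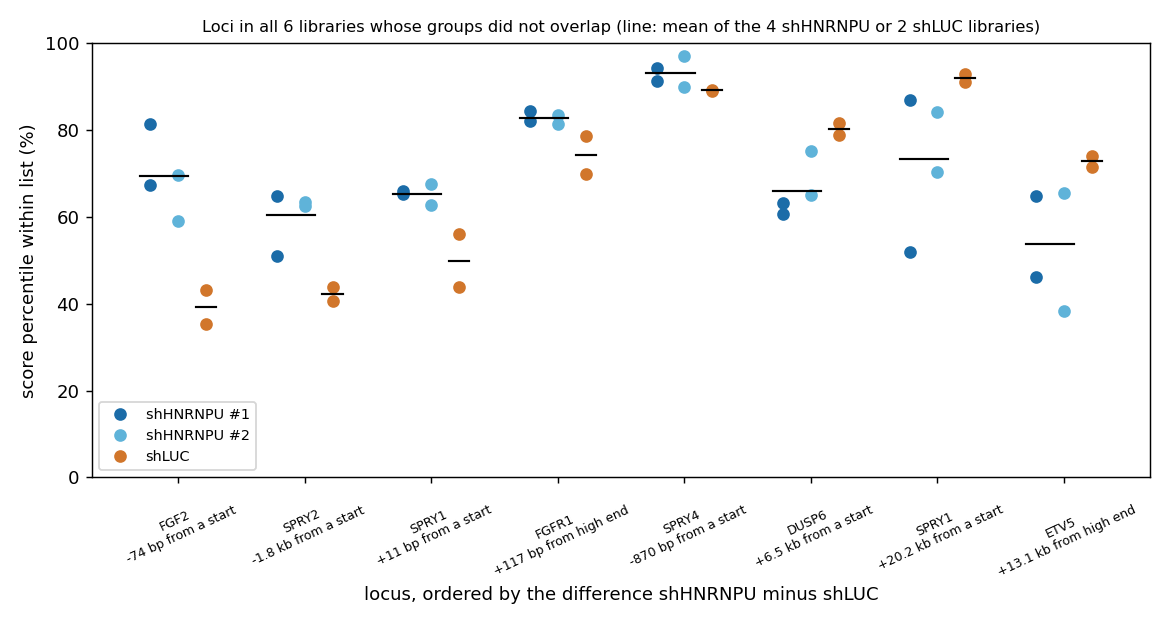
Score percentile in each library at the 8 loci called in all 6 libraries whose groups did not overlap, ordered along the x axis by their difference. Points are libraries, coloured by hairpin, and lines are the means of the 4 shHNRNPU and the 2 shLUC libraries. The gap is widest at the FGF2 start and narrowest at SPRY4.

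Over the 22 loci called in all 6 libraries, the groups did not overlap at 8. Of these, 5 were higher with shHNRNPU, at FGF2, SPRY1, SPRY2, SPRY4 and FGFR1, and 3 were lower, at SPRY1, DUSP6 and ETV5. Among all 25519 such loci, 10.9% were higher and 13.9% lower, or 24.8% in either direction, beside 36.4% of the 22. The median difference was -1.09 points over the 22 loci and -0.29 points over all. Each of the 8 had an exact two-sided permutation p of 0.133 and an adjusted p of 0.538, and this permutation test cannot give a p below 0.133 with these libraries. The 22 loci were strong ones, with a median percentile of 80.6 beside 73.7 for all loci in 6 libraries. The positions of their summits ranged over a median of 109 bp between libraries, beside 108 bp. Matching summits within 100 bp gave 3 of 12 loci, or 25.0%, beside 25.9% of all loci. With a single control the groups separate more easily, and the counts were 16 of 23 without shLUC repeat 1 and 15 of 22 without shLUC repeat 2, beside 47.3% and 51.1% of all loci.

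**Figure D4:**
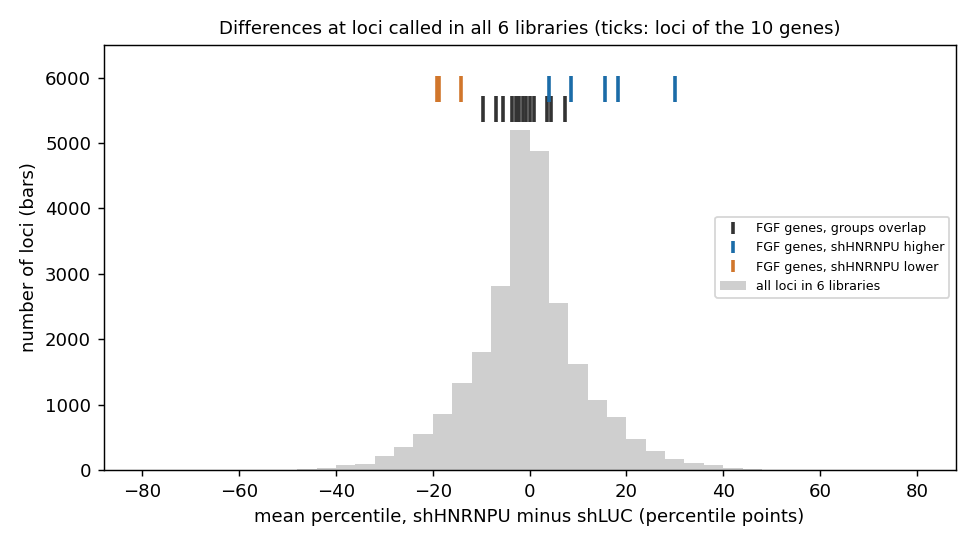
Difference in mean percentile, shHNRNPU minus shLUC, in points on the x axis. Grey bars count the 25519 loci called in all 6 libraries in bins, and ticks above them mark the 22 loci of the 10 genes, with blue for higher, orange for lower and black for groups that overlap. The FGF2 start, at 30.0 points, is the tick farthest to the right.

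The 8 loci also differed in where they lay, a split looked at after the values were seen. The 5 higher loci were among the 11 within 2000 bp of a gene start, or of either end where no start was listed, where 0 were lower. The 3 lower loci were among the 11 farther from every start, where 0 were higher. With a limit of 1000 bp, also chosen after the values were seen, 4 of 9 near loci were higher and 0 lower, and of 13 farther away 1 was higher, at SPRY2, and 3 were lower. Over all loci in 6 libraries, of 10811 near a start, 13.8% were higher and 8.04% lower, and of 14708 farther away, 8.67% were higher and 18.2% lower. Whether the loci of the 10 genes differ from all loci in this was not tested.

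The wider pathway was given by 61 further genes in 5 lists. Of these, 50 (82.0%) had a summit within 1000 bp of a start in all 6 libraries, beside 65.5% of all protein-coding genes. All 17 adaptors and kinases did, as did 10 of 12 inhibitors, 9 of 12 targets, 6 of 8 receptors and co-receptors and 8 of 12 ligands. The number of summits in the window of 20 kb was higher in every shHNRNPU library than in both controls for 5 of the 61 genes (8.20%) and lower for 4 (6.56%), beside 3.54% and 3.92% of all genes. Each of the 9 had an exact two-sided permutation p of 0.133 and an adjusted p of 1. The median difference was 0 over the 61 genes and 0 over all genes.

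The adaptors and kinases had 3 lower genes and 0 higher. BRAF, a kinase that activates MEK, had 3, 3, 3 and 2 summits with shHNRNPU and 6 and 5 with shLUC. FRS2, the docking protein of the receptors, had 3, 4, 4 and 3 against 5 and 5. Among the inhibitors, IL17RD, which dampens receptor signalling, had 8, 8, 9 and 8 against 6 and 7. SPRED2, a relative of the Sprouty proteins, had 6, 7, 6 and 6 against 5 and 5. RASA1, which switches RAS off, had 1 in each shHNRNPU library against 2 and 2. Of the targets, the early-response gene FOS had 7, 8, 7 and 7 against 6 and 5, and CCND1, a cyclin, had 6, 6, 7 and 6 against 4 and 5. CCND1 had no listed start, and a summit within 1000 bp of either of its ends was called in 4 of 4 shHNRNPU and 0 of 2 shLUC libraries. Of all protein-coding genes, 10.6% had such a summit in some but not all libraries. The share of genes whose calls separate the groups in this way is not given here. Of the ligands, FGF19 had 7, 5, 5 and 5 against 4 and 4. In the 8 receptors and co-receptors no gene separated the groups, with 0 higher and 0 lower.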

How the data were processed

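Peaks were called by the authors in each library separately, and the deposited score is taken, from the layout and values, to be −log10 of the q-value that MACS2 gives a peak. Nothing in the lists normalizes it between libraries. Per the labels, reads were processed with cutadapt, Bowtie2, SAMtools, MACS2 and deepTools on hg38, with settings not given in the sources used here. The linked article covers other libraries and was used for style alone.

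Groups and repeat numbers came from the titles. The 10 genes and the lists were chosen with earlier results of these data known. Loci were built by taking the summit of highest percentile first and absorbing summits within 250 bp. Means were compared by exact permutation over the 15 ways to pick 2 libraries as controls, two-sided (2 times the smaller tail), with Benjamini-Hochberg adjustment over all genes or loci. Named loci were, per gene, the one of highest mean percentile, the one nearest a start within 1000 bp, lost or gained ones, and up to 2 whose groups did not overlap. Other loci were named after their values were seen. Of the pathway lists, up to 3 genes per list were named, those whose groups did not overlap with the largest difference. The values of 1 listed gene are not reported here. Where no start was listed, either end of a gene was used. Exons were not used. Alternatives tried were lists of equal size, a minimum score of 5, match distances of 100 and 500 bp, flanks of 5 and 50 kb, absence within 1000 bp, each hairpin alone, leaving out each library and a replicate block. The steps were tested on simulated data. Versions were matplotlib 3.10.9, statsmodels 0.14.6, scipy 1.17.1, pandas 2.3.3 and numpy 2.4.6, under Python 3.11.15.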

Additional observations from a re-analysis of the deposited data

Results flagged for a closer look

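Among the 4 shHNRNPU libraries, 3 of 32 sets of values had 1 library far from the other three. Chance gives about 1.6 for continuous values, a rate that does not hold for small counts with ties, and 2 of the 3 are such counts with a gap of 1 summit. The FGF2 window had 2 summits in shHNRNPU #1 repeat 2, and 3 in each of the others. The DUSP6 window had 4 summits in shHNRNPU #1 repeat 1 and 3 in each of the others. At the SPRY2 locus at 80342947 the percentile was 51.0 in shHNRNPU #1 repeat 1, beside 62.5 to 64.9 in the others, and it was still above both shLUC libraries.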

How the results depend on the processing

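The lists hold summits and scores without read counts, and with 2 controls the permutation test used cannot give a p below 0.133. At the 8 loci whose groups did not overlap, another score minimum, list size or match distance gave 26 values, and in each the direction was kept and the groups did not overlap. Each value from another match distance equalled the main difference, so those values are no sign of stability either. Matching within 100 bp gave a value at 3 of the 8, and a minimum score of 5 gave none at the FGF2 start. With that minimum the percentiles were taken in shorter lists, and the differences were larger at higher and lower loci alike. Fits on fewer of the same libraries cannot turn the direction at these loci, which is no sign of stability. Of the recomputed differences in window counts, 117 stayed within the spread and 13 moved by more. Among the 117 are those of the replicate block, which cannot change a difference, and many from fewer of the same libraries. A flank of 50 kb moved the difference in summits from -0.5 to 4.75, the loci in all libraries to 34, and left 1 gene, ETV4, with groups that did not overlap, as more loci enter. Lists of one size gave 1 gained locus and 1 gene with groups that did not overlap, both at SPRY4. Matching within 100 bp gave 2 lost loci, at ETV5 and ETV4, 1 gained locus, at FGFR1, 12 loci in all libraries and 3 with groups that did not overlap, as summits that move between libraries part. Fewer libraries meet each condition more easily by construction. The shares of all loci lost or gained under these alternatives are not given here, so the counts are a description. shHNRNPU #1 alone gave 2 lost loci, at SPRY1 and ETV4, and 12 of 22 loci with groups that did not overlap, beside 46.9% of all loci. shHNRNPU #2 alone gave 1 lost locus, at FGF4, and 15 of 26 loci with groups that did not overlap, beside 41.4% of all loci. Leaving out each library gave 0 to 4 lost loci, 0 or 1 gained, 0 or 1 gene with groups that did not overlap, and 9 to 16 such loci. The highest values came without a shLUC library: 16 of 23 loci and 4 lost without repeat 1, and 15 of 22 and 2 lost without repeat 2, where the gene was SPRY2. The labels do not say that repeat numbers pair the libraries, and the deviations of same-numbered libraries correlated at -0.04, -0.01 and 0.00 over 25519 loci. With a replicate block, permuting within repeats, the difference of 30.0 points at the FGF2 start had an exact p of 0.222, the smallest of 9 choices. The calls do not use the permutation, so the block could not change them.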

Other observations

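Loci between 20 and 50 kb from the genes were looked at after the values were seen. Of 12 called in all 6 libraries, 2 were higher in every shHNRNPU library than in both controls and 2 were lower. Of all loci in 6 libraries 10.9% were higher and 13.9% lower, so 4 of 12 is near the share over all loci, and the values are given as a description. Both lower ones lay on the start side of FGF2. The one 43.2 kb away, on chromosome 4 at 122783495, had percentiles of 90.6, 84.0, 91.9 and 90.6 with shHNRNPU and 99.7 and 97.7 with shLUC. The one 29.7 kb away, at 122796991, had 68.5, 70.1, 63.3 and 50.3 against 85.6 and 71.7. At the FGF2 start itself the order was the opposite. The higher ones lay 38.6 kb from SPRY2, on chromosome 13 at 80297326, with 95.02, 85.4, 89.2 and 82.1 against 80.8 and 76.4, and 31.9 kb from SPRY4, within SPRY4-AS1 on chromosome 5 at 142356921, with 95.03, 92.9, 93.6 and 93.1 against 82.0 and 91.0. Each had an exact two-sided permutation p of 0.133, the smallest possible, and 0.538 after adjustment over all loci in 6 libraries.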
